A study of Oncorhynchus mykiss with 6 samples.

Results

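The miR-216 and miR-217 cluster was taken as every entry of the deposited miRNA table named miR-216 or miR-217, whatever the species prefix, letter, arm or length. This gave 4 of 1426 entries (3 named miR-216 and 1 named miR-217), which hold 3 distinct sequences. The libraries came from dorsal skin of female rainbow trout aged 12 months post hatching, 3 of wild-type fish with black skin (WR_S) and 3 of yellow mutant fish with yellow skin (YR_S), 1 skin per library and all from the same pond. By the study's account YR_S skin lacks melanocytes and has fewer xanthophores, and the mutated gene is not stated. The study compared both strains to look for differences in skin immunity, and small RNA of each skin was sequenced. The cluster was chosen by the counts of these same libraries, in which it was higher in YR_S than in WR_S, so that difference is given below as a description and without a test. Values per library stand in the order of replicates 1, 2 and 3 throughout.

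In vertebrates the genes of miR-216a, miR-216b and miR-217 lie close together, so that they can be made from 1 long transcript. The cluster is best known from the exocrine pancreas, in zebrafish as in mammals, where acinar cells that make digestive enzymes are rich in it. In human cells miR-217 represses the deacetylase SIRT1. In zebrafish miR-216a acts on snx5 in the developing retina, and in miiuy croaker miR-217 has been tied to nod1, a sensor of bacteria. Neither miRNA is a usual marker of skin.

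The sequences are shown because they decide which entries are separate measurements and which miRNAs could share targets. They are printed from 5′ to 3′ as the table writes them, with T for U, and capitals mark the seed (bases 2 to 8), the stretch that mainly selects target mRNAs.
ssa-miR-216b-5p: tAATCTCAgctggcaactgtga
dre-miR-216b: tAATCTCTgcaggcaactgtga
ssa-miR-216a-5p: tAATCTCTgcaggcaactgtga
dre-miR-217_R+1: tACTGCATcaggaactgattgga

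The zebrafish entry dre-miR-216b and the salmon entry ssa-miR-216a-5p were 1 sequence under 2 names, so the letters a and b do not mean the same miRNA in both species. Against it, ssa-miR-216b-5p carried the 2 changes T8A and A11T (base of dre-miR-216b first, positions counted from 1 at the 5′ end), with the other 20 bases identical. T8A is the last base of the seed, so the 2 miR-216 sequences had seeds AATCTCA and AATCTCT, which differ by that base. The seed of miR-217, ACTGCAT, was unrelated to both. Among all 1426 entries each of these 3 seeds occurred only in the entries printed here. The miR-216 sequences were 22 nt long and dre-miR-217_R+1 was 23 nt, its suffix standing for 1 base more at the 3′ end than the zebrafish database sequence. No entry named as a 3p arm and no predicted candidate carried either number.

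Counts in the table are estimated counts, which need not be whole. The entries dre-miR-216b and ssa-miR-216a-5p held the same counts in every library (108, 29.5 and 78 in WR_S and 91.5, 433 and 221.5 in YR_S for each), 3 of them not whole. They were read as 1 measurement divided between 2 names, and their counts were added. All 4 entries were above 0 in all 6 libraries. Total counts were 4477917 to 5089802 in WR_S, 4375641 and 4388665 in YR_S replicates 2 and 3, and 1442631 in YR_S replicate 1, the shallowest library. Levels are CPM, counts per 1000000 after TMM scaling, and 1 count stood for 0.651 CPM in YR_S replicate 1 and for 0.193 to 0.255 CPM in the others. Muscle miRNAs also differed in amount between skins, from 2806 to 12616 summed CPM in WR_S and from 2007 to 4951 CPM in YR_S. The keratinocyte miRNA ssa-miR-205b-5p stood at 11571 to 17724 CPM in WR_S and 11162 to 19680 CPM in YR_S and so was abundant in all 6 libraries. It does not stand for the whole epidermis list used below. Of the 31 tested entries of that list, 28 had a negative log2 fold change of YR_S over WR_S and 3 a positive one (median -0.31).

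The cluster was a minor part of the skin miRNAs and was more abundant in YR_S. Together its 4 entries reached 84.8, 25.3 and 69.9 CPM in WR_S against 256, 503 and 187 CPM in YR_S. The lowest YR_S library was thus 2.21 times the highest WR_S library, and 1.41 times when levels were scaled by the study's clean read totals. The means were 60.0 ± 31.0 CPM in WR_S and 316 ± 166 CPM in YR_S (SD, n = 3 each), a ratio of 5.26. These reads made up 0.00266% to 0.00864% of the counts in WR_S and 0.0177% to 0.0451% in YR_S. In a whole skin piece, more cells that carry a miRNA and more of it per cell cannot be told apart.

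The commonest miR-216 sequence, shared by dre-miR-216b and ssa-miR-216a-5p, was counted 216, 59 and 156 times in WR_S against 183, 866 and 443 times in YR_S. This gave 41.6, 12.5 and 33.0 CPM in WR_S against 119, 221 and 107 CPM in YR_S. All YR_S libraries stood above all WR_S libraries, and the lowest YR_S value was 2.57 times the highest WR_S value (1.33 times with clean read totals). The means were 29.1 ± 14.9 and 149 ± 62.6 CPM (SD, n = 3 each). Fitted by edgeR for either of its 2 entries, the log2 fold change of YR_S over WR_S was 2.36 ± 0.51 (SE). It was 2.22 ± 0.48 (SE) in a fit with the counts of identical sequences added, an alternative chosen after seeing the data.

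The other miR-216, ssa-miR-216b-5p, was the scarcest of the 3 sequences. It was counted 50, 4 and 31 times in WR_S against 47, 122 and 59 times in YR_S. Its levels were 9.63, 0.850 and 6.56 CPM in WR_S and 30.6, 31.1 and 14.2 CPM in YR_S. The groups did not overlap, with the lowest YR_S value 1.48 times the highest WR_S value (1.40 times with clean read totals). The 4 counts in WR_S replicate 2 have an exact Poisson 95% interval of 0.231 to 2.18 CPM, which covers counting error only. The log2 fold change was 2.14 ± 0.74 (SE), and 1.53 without WR_S replicate 2.

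miR-217 was held by dre-miR-217_R+1, the most abundant single entry of the cluster. It was counted 174, 56 and 143 times in WR_S against 164, 986 and 274 times in YR_S. In CPM these were 33.5, 11.9 and 30.3 in WR_S and 107, 251 and 66.1 in YR_S. YR_S replicate 2 was the highest library, 3.81 times YR_S replicate 3, and WR_S replicate 2 was the lowest, so each group spread widely while the groups stayed apart. The log2 fold change was 2.49 ± 0.59 (SE), and 1.77 without YR_S replicate 2. By mean level the entry took place 372 of 1426 in WR_S and place 226 in YR_S.

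**Figure D1:**
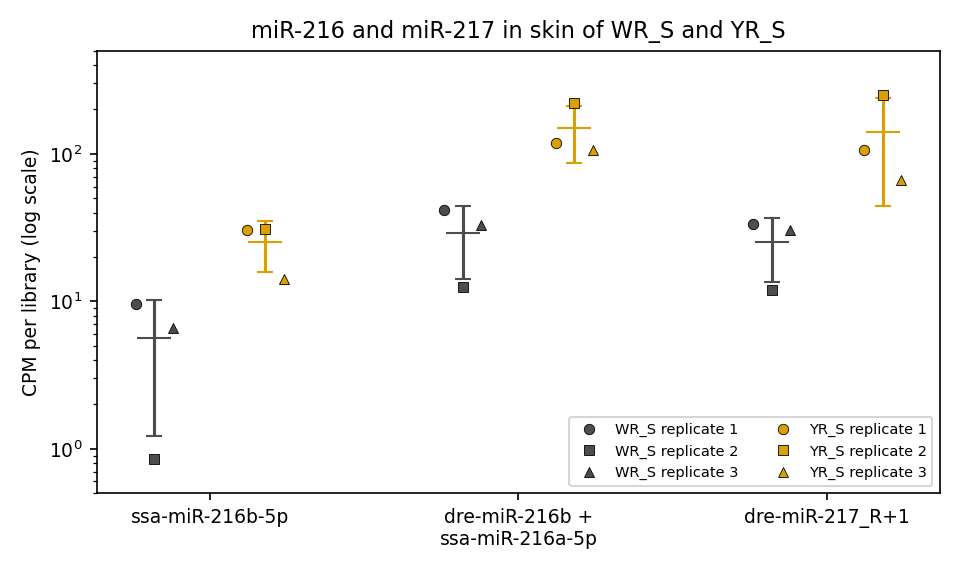
Level in CPM (log axis) of the 3 distinct sequences in each library, with WR_S in grey and YR_S in yellow, symbols for replicates 1 to 3, horizontal bars for group means and vertical bars for SD. For each sequence the 3 YR_S libraries lie above the 3 WR_S libraries, with WR_S replicate 2 lowest and YR_S replicate 2 highest.

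All 4 entries had every YR_S library above every WR_S library, as did 8.29% of the 1085 entries that were above 0 in at least 3 libraries and were tested, while 9.03% lay wholly the other way. At the study's thresholds (log2 fold change of at least 1 and unadjusted p below 0.05) edgeR placed 4 of 4 entries on the higher side, where 1.75% of all entries tested stood (19 entries, with 70 or 6.45% on the lower side). The entries were picked for this contrast, so nothing is read from these counts. Entries repeat in part, since the 4 hold 3 distinct sequences and the 1085 hold 914 distinct sets of counts. Scaled by the clean reads of each library, the table split into 8 higher and 124 lower. Leaving out WR_S replicate 2 reduced the 19 to 12 and leaving out YR_S replicate 1 to 11, and ssa-miR-216b-5p no longer reached the p threshold when YR_S replicate 1 or 2 was missing. After Benjamini-Hochberg adjustment edgeR's quasi-likelihood test passed 0 of 1085 entries at p below 0.05 (0%), although 113 had an unadjusted p below 0.05, and limma on log2 of the deposited signal plus 1 passed 0 as well. DESeq2 passed 36 (3.32%), of which 13 were higher in YR_S (1.2%). Of the 4 cluster entries 3 were among these 13, all but ssa-miR-216b-5p. As the entries were picked for this contrast, nothing is read from that either.

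Among the 493 entries tested that averaged at least 10 CPM, the 4 entries took places 1, 2, 2 and 4 from the most positive log2 fold change down, where 2.84% had a log2 fold change of at least 1, 2.64% also had an unadjusted p below 0.05, and 13.4% had all YR_S libraries above all WR_S libraries. Over all 1085 entries 7.19% had a log2 fold change of at least 1. The median over all 1085 entries was -0.03. The members were chosen for this contrast, so nothing is read from their places among the 493. ssa-miR-216b-5p cleared the 10 CPM filter through YR_S (25.3 CPM), since its WR_S mean (5.68 CPM) lay below 10. The filter also left out tested entries with a more positive log2 fold change, such as PC-5p-43254_34 (7.35, mean 2.53 CPM).

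**Figure D2:**
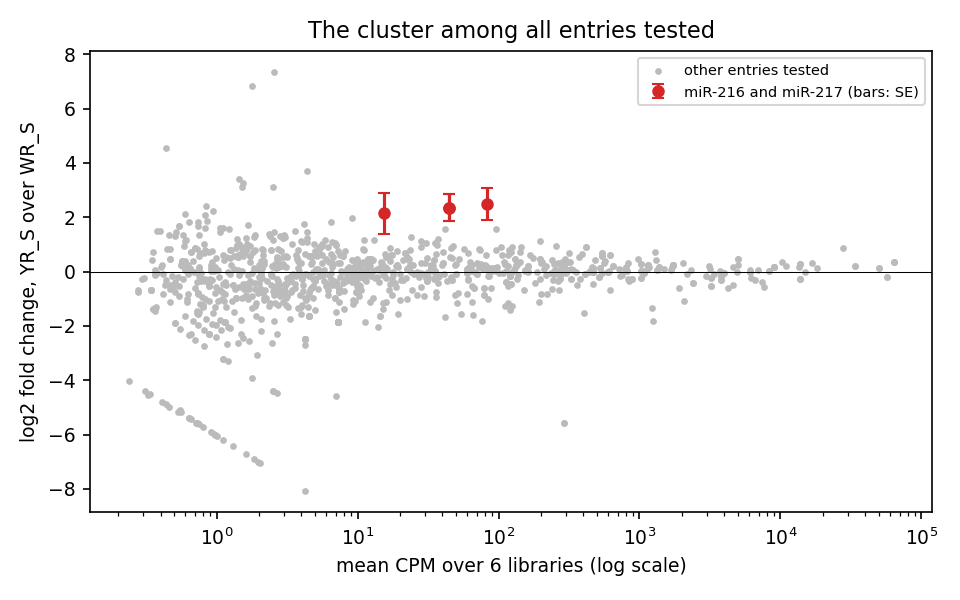
Log2 fold change of YR_S over WR_S against mean CPM over the 6 libraries (log axis) for the 1085 entries tested, with the 4 miR-216 and miR-217 entries in red (2 coincide) and bars for their SE. The red points lie between 2.14 and 2.49. Among entries of at least 10 CPM they take places 1, 2, 2 and 4 from the most positive down. The cluster was chosen for this difference. The miR-122 value of -5.56 ± 2.05 (SE) rests on WR_S replicate 3 (1702 CPM in ssa-miR-122-5p_R+1), and its groups overlap.

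The balance between the cluster's members was not the measure they were chosen by, but it was built from the same counts. Both miRNAs were chosen as higher in YR_S, so a similar balance in both groups follows in part from that choice. Summed miR-217 counts per count of summed miR-216 came to 0.654, 0.889 and 0.765 in WR_S against 0.713, 0.998 and 0.546 in YR_S. The highest and the lowest ratio both occurred in YR_S, so the groups overlapped. On the log2 scale the ratio averaged -0.39 ± 0.22 in WR_S and -0.45 ± 0.44 in YR_S (SD, n = 3 each), a difference of -0.07 (exact permutation test, two-sided, p = 0.9, and 0.9 when adjusted over 3 measures of balance). With 3 libraries against 3 that test cannot give a p below 0.1. The 3 measures were this ratio, the share of miR-217 in the cluster's counts and the share of ssa-miR-216b-5p in the miR-216 counts. The ratio and the share of miR-217 restate the same counts, so they are not separate checks. The difference in the log2 ratio ranged from -0.29 to 0.14 when single libraries were left out. It turned positive without WR_S replicate 2 (0.04) or YR_S replicate 3 (0.14). Within YR_S, miR-217 made up 49.9% of the cluster's counts in replicate 2 (exact binomial 95% interval 47.7% to 52.2%) and 35.3% in replicate 3 (31.9% to 38.8%), where the intervals cover counting error and not the variation between fish.

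The 2 miR-216 sequences kept an unequal share in every library. ssa-miR-216b-5p made up 18.8%, 6.35% and 16.6% of the miR-216 counts in WR_S, and 20.4%, 12.3% and 11.8% of them in YR_S. Its share thus lay below that of the other sequence in all 6 libraries and overlapped between the groups. The means were 13.9% ± 6.64 in WR_S and 14.8% ± 4.85 in YR_S (SD, n = 3 each, exact permutation test, two-sided, p = 0.9). Both sequences were chosen as higher in YR_S, so similar shares follow in part from that choice. The test cannot give a p below 0.1 here either, so no conclusion is drawn from it. The share of WR_S replicate 2 rested on 4 of 63 counts (exact binomial 95% interval 1.76% to 15.5%). In order of level the shared miR-216 sequence and miR-217 stood close together, with the former higher in 5 of 6 libraries and miR-217 higher in YR_S replicate 2. Levels of different sequences are not calibrated against each other in small RNA libraries.

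**Figure D3:**
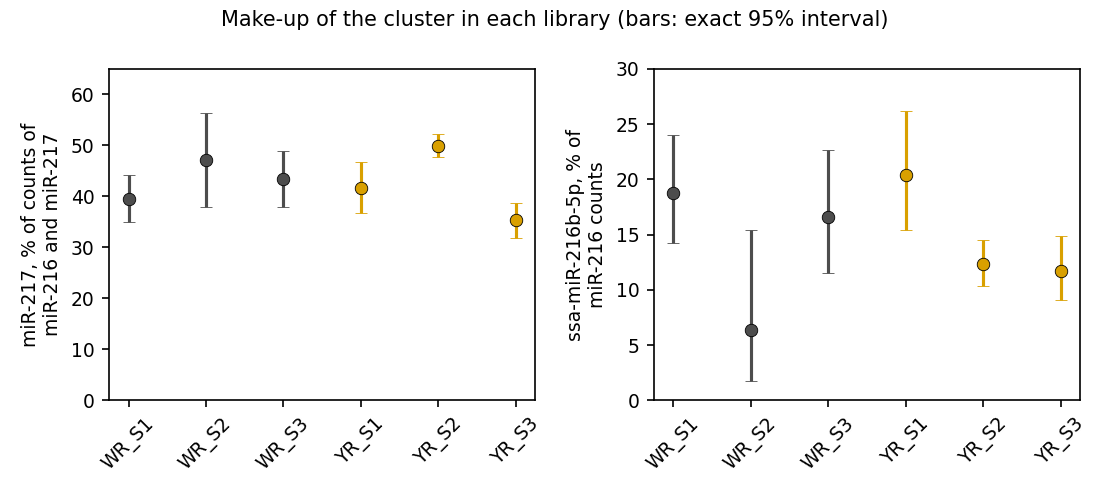
Share of miR-217 in all miR-216 and miR-217 counts (left, percent) and share of ssa-miR-216b-5p in the miR-216 counts (right, percent) in each library, WR_S in grey and YR_S in yellow, with exact 95% binomial intervals. The shares of the groups overlap on both sides, and the lowest right-hand share, 6.35% in WR_S replicate 2, has the widest interval.

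Profiles of the cluster's members were compared with those of other miRNAs, first with the difference between the groups included. Likeness was measured as the root mean square difference between log2(CPM + 1) profiles over the 6 libraries, each profile centred on its mean, among entries averaging at least 10 CPM with each sequence taken once. Nearest to dre-miR-216b among 400 entries were dre-miR-217_R+1 (0.26) and then ssa-miR-216b-5p (0.41), and nearest to dre-miR-217_R+1 were dre-miR-216b (0.26) and ssa-miR-216b-5p (0.49). The difference between the groups is part of these profiles and was known when the cluster was chosen. ssa-miR-216b-5p also passed the 10 CPM filter through YR_S (mean 25.3 CPM, against 5.68 CPM in WR_S). Nothing is therefore read from the near places of any member by this measure. With each group centred on its own mean, a measure added after the data were seen, dre-miR-217_R+1 was still the nearest of 400 to dre-miR-216b, and dre-miR-216b the second nearest to dre-miR-217_R+1 (0.26 in both cases, against medians of 0.63 and 0.75). ssa-miR-216b-5p, with its 4 counts in WR_S replicate 2, took places 23 and 18 by that measure. The outside entries nearest to dre-miR-216b by it were ssa-miR-194a-5p (0.30) and ssa-miR-489-3p (0.31). For dre-miR-217_R+1 they were fru-miR-152_L+1 (0.21), nearer than any cluster entry, and ssa-miR-194a-5p (0.31). The entry ssa-miR-194a-5p belongs to the liver and gut list used below. By the same measure the entries nearest to ssa-miR-216b-5p were the predicted candidate PC-5p-3724_760 (0.28), dre-miR-216b (0.41) and hsa-miR-7977_1ss6AG (0.46). For that profile dre-miR-217_R+1 took place 4 (0.48). The points of all profiles share the same 6 libraries and their depth.

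Outside the cluster, by profiles that include the difference between the groups, the entries most like summed miR-216 were bta-miR-11987_L-1R-1_1ss8TA (0.75), ssa-miR-33a-3p (0.76) and ssa-miR-499a-5p (0.77), and those most like miR-217 were ssa-miR-499a-5p (0.68), ssa-miR-33a-3p (0.77) and hsa-mir-204-p5 (0.86). bta-miR-11987_L-1R-1_1ss8TA stood at 56.4, 36.4 and 53.9 CPM in WR_S and 130, 119 and 183 CPM in YR_S. ssa-miR-33a-3p comes from a family located in introns of sterol regulator genes, and stood at 14.8, 11.0 and 16.5 CPM in WR_S and 33.8, 39.5 and 28.5 CPM in YR_S. ssa-miR-499a-5p, of a family encoded in myosin heavy chain genes, stood at 29.3, 18.3 and 16.5 CPM in WR_S and 36.5, 113 and 37.9 CPM in YR_S. Its peak lay in YR_S replicate 2, like that of miR-217. It is also in the muscle list used below, as the only entry there with a positive log2 fold change. The other 19 of the 20 tested entries of that list had a negative one. Among them was ssa-miR-499b-5p_R-1 of the same family (-1.43 ± 0.33 SE). hsa-mir-204-p5, which the pigment list holds too, stood at 142, 117 and 113 CPM in WR_S and 258, 319 and 238 CPM in YR_S. These entries were picked by a likeness that holds the group contrast, so no test of that contrast is given for them.

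**Figure D4:**
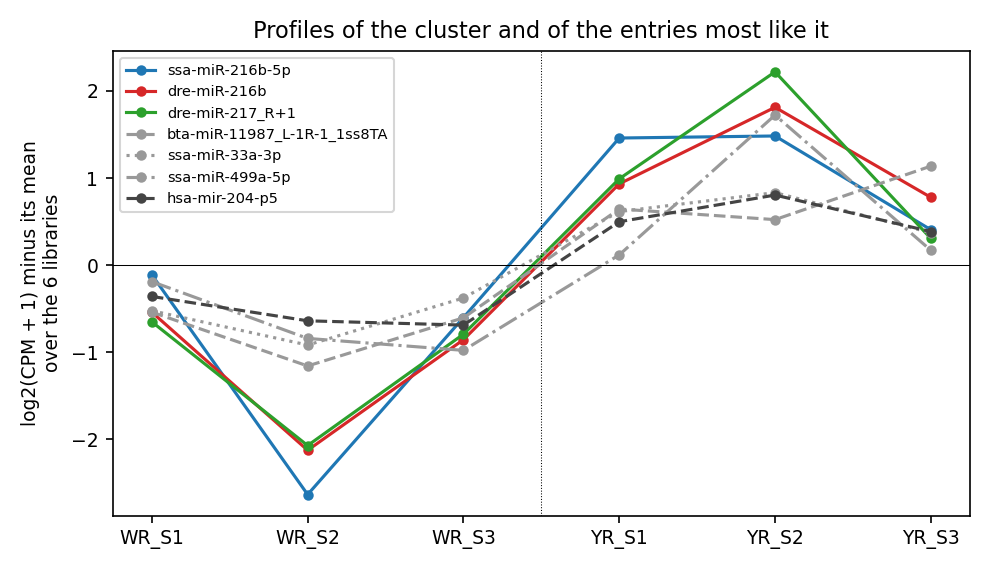
Centred log2(CPM + 1) of 3 cluster entries (coloured) and of the 4 entries outside the cluster that were most like its summed miR-216 or miR-217 (grey and black) in each library. Lines only join the points of an entry. The coloured lines are lowest in WR_S replicate 2 and highest in YR_S replicate 2, and their swing is wider than that of the others.

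Other miRNAs of digestive organs were compared, from lists by miRNA number. miR-375 and miR-7 are the best known miRNAs of pancreatic islets and other neuroendocrine cells. ssa-miR-375-3p stood at 725, 702 and 862 CPM in WR_S and at 748, 233 and 455 CPM in YR_S (log2 fold change -0.67 ± 0.39 SE, adjusted p = 0.658 in edgeR's quasi-likelihood test). It was lowest in YR_S replicate 2, the library with the most miR-216 and miR-217. ssa-miR-7a-5p stood at 130, 155 and 139 CPM in WR_S and at 85.2, 148 and 75.6 CPM in YR_S (adjusted p = 0.736). By edgeR 0 of the 8 tested entries of this list passed the adjustment in either direction, as by DESeq2 and limma. In edgeR 1 of the 8 had an unadjusted p below 0.05, where 10.4% of all entries tested did. Of the 8, 0 had a positive log2 fold change, with a median of -0.67 against -0.03 over all entries tested. The list is known from islet and neuroendocrine cells, whereas the cluster is best known from acinar cells, so it does not measure acinar tissue.

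The summed levels of liver and gut miRNA families overlapped between the groups. The hepatocyte miRNA miR-122, over its 2 entries, summed to 18.9, 19.5 and 3404 CPM in WR_S and to 5.86, 51.3 and 13.3 CPM in YR_S. WR_S replicate 3, which alone was rich in miR-122, had a middle cluster level for its group (69.9 CPM). The gut miRNA miR-192 summed to 33.6, 29.1 and 75.9 CPM in WR_S and to 17.9, 58.8 and 25.7 CPM in YR_S, and miR-194 to 42.3, 11.8 and 33.6 CPM in WR_S and to 10.4, 37.7 and 14.5 CPM in YR_S. Within YR_S both were highest in replicate 2, as the cluster was, and in WR_S both were lowest in replicate 2. miR-215 was above 0 in WR_S replicate 1 alone (19.6 CPM). By edgeR 0 of the 9 tested entries of the list passed the adjustment in either direction, as by DESeq2 and limma. In edgeR 2 of the 9 had an unadjusted p below 0.05, where 10.4% of all entries tested did. The 2 were the miR-122 entries, whose levels were equal in every library and high in WR_S replicate 3 alone. Of the 9, 1 had all YR_S libraries below all WR_S libraries, as did 9.03% of all entries tested. Log2 fold changes were positive for 2 and negative for 7, with a median of -1.55 against -0.03 over all entries tested. That median is the value of ssa-miR-194b-5p_1ss9CT, a scarce entry with a mean of 0.742 CPM. The part of pancreas, liver or gut tissue in the cluster's level was not tested.

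**Figure D5:**
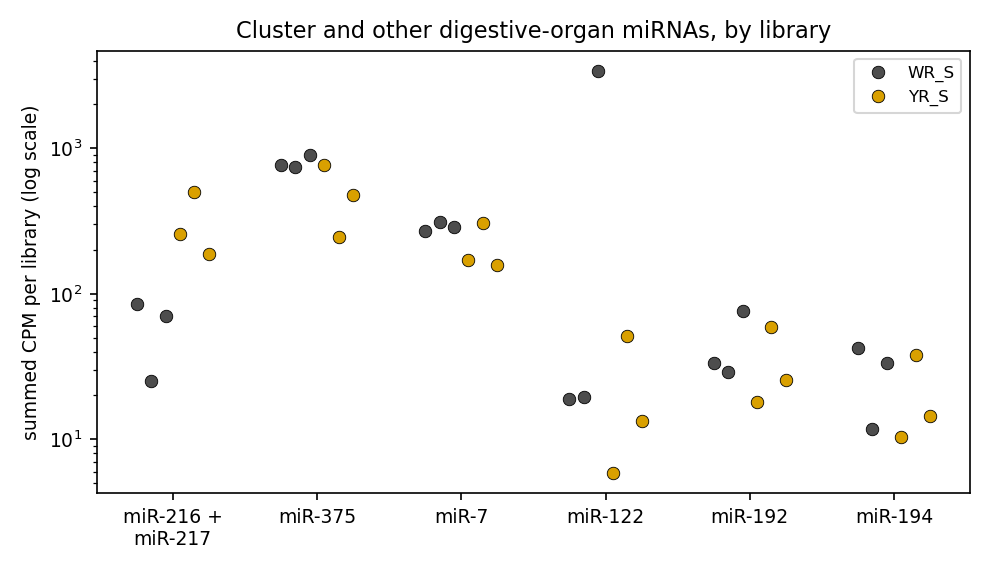
Summed CPM per library (log axis) of the cluster and of 5 other digestive-organ miRNA families, WR_S in grey and YR_S in yellow, replicates 1 to 3 from left to right in each group. Of the families drawn the groups are apart for the cluster alone, which was chosen for that difference. Summed together, miR-375 and miR-7 are also apart, with 1036 to 1181 CPM in WR_S and 552 to 944 CPM in YR_S. The single high miR-122 point is WR_S replicate 3 at 3404 CPM.

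The lists for cell types of a skin piece held 0 entries passing the adjustment in edgeR, with 20 tested for skeletal muscle, 6 for red cells, 13 for leukocytes, 31 for epidermis, 33 for stroma and 8 for pigment cells. At an unadjusted p below 0.05 in edgeR stood 10, 0, 1, 1, 1 and 7 of them in that order. Over all 1085 entries tested 113 did (10.4%). DESeq2 passed 2 lower muscle entries, 1 lower epidermis entry and 5 higher pigment entries, and limma 0. Their median log2 fold changes were -1.62 for muscle, -0.22 for red cells, -0.01 for leukocytes, -0.31 for epidermis, 0.05 for stroma and 0.89 for pigment cells. The summed level of the groups was apart only for pigment cells (18657 to 23430 CPM in WR_S and 36149 to 39851 CPM in YR_S) and, in the other direction, for the islet list (1036 to 1181 CPM and 552 to 944 CPM). The pigment list is made of miR-204 and miR-211. It was higher in YR_S, whose skin by the study's account lacks melanocytes and has fewer xanthophores. The list is therefore not read here as a measure of pigment cell number. ssa-miR-204-5p stood at 22317, 17761 and 19222 CPM in WR_S and 38106, 34199 and 36399 CPM in YR_S (log2 fold change 0.87 ± 0.17 SE, adjusted p = 0.233 in edgeR's quasi-likelihood test). Within YR_S, ssa-miR-204-5p ran from 34199 to 38106 CPM, and the summed cluster spread 2.69-fold. Whether the cell make-up of the skins bears on the level of miR-216 and miR-217 was not tested.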

How the data were processed

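Single-end small RNA sequencing was done on 6 libraries, each from the dorsal skin of 1 fish, prepared with the TruSeq small RNA kit. The authors cleaned the reads in ACGT101-miR, searched miRBase for known miRNAs and predicted further ones in Mireap. The rule for dividing reads among entries is not stated in the sources used here. They deposited an estimated count for each entry and library, as well as a normalized signal equal to that count times 1 factor per library. The deposited fold change and p-value columns hold the authors' own comparison and were left unused, as was 1 line that named no miRNA.

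The members and all lists were chosen with earlier results of these data known. Named entries were all cluster entries, the 2 most abundant of each list (in part described), and the 3 outside entries most like each of summed miR-216 and summed miR-217. Estimated counts were rounded and entries above 0 in at least 3 libraries were fitted by edgeR's quasi-likelihood test (TMM scaling, no covariate, Benjamini-Hochberg over 1085 entries), with the SE taken from the estimate and its F statistic. The fit was tested on simulated data. Any p-value here reflects only how 3 fish per group vary. Intervals cover counting error only. Alternatives were other scalings, filters and tools, a replicate block and single libraries left out. Software comprised edgeR 4.0.16, DESeq2 1.42.0 and limma 3.58.1 in R 4.3.3, with scipy 1.17.1 in Python 3.11.15. Genome positions are not given here.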

Additional observations from a re-analysis of the deposited data

How the results depend on the processing

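The log2 fold change of the cluster stayed positive under every alternative, from 1.89 to 2.63 for dre-miR-216b and ssa-miR-216a-5p, from 1.77 to 2.72 for dre-miR-217_R+1 and from 1.53 to 2.69 for ssa-miR-216b-5p, these ends coming from leaving out single libraries. The groups did not overlap for any member under TMM, DESeq2's size factors, the authors' factors or the study's clean read totals. Under TMM 8.29% of the 1085 entries tested also had all YR_S libraries above all WR_S libraries. The members were chosen by these same counts, so nothing is read from the sign or from the lack of overlap. Clean read totals moved the median over all entries by -0.35 and gave 1.98 for summed miR-216 and 2.16 for miR-217, against 2.33 and 2.49. Leaving out single libraries gave 1.94 to 2.72 and 1.78 to 2.83, and moved the log2 ratio of miR-217 to miR-216 between -0.29 and 0.14.

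Over the whole table, 19 entries were higher and 70 lower at the study's thresholds. The numbers were 8 and 124 with clean read totals, 12 and 10 with a mean of at least 10 CPM, 11 to 19 and 44 to 93 without single libraries, and 12 higher with counts of identical sequences added, an alternative chosen after seeing the data. At an adjusted p below 0.05, DESeq2 called 36 entries where edgeR called 0, and 8 list entries where edgeR called 0. The cause was not tested.

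The replicate numbers were shared by the groups and were not used as pairs in the main fit. Deviations from the group means correlated by 0.13, 0.05 and 0.24 for numbers 1, 2 and 3. Between libraries of unlike number they correlated by -0.19 to 0.03, so every library correlated best with its own number. For number 2 the margin was narrow (0.046 against 0.029 for WR_S replicate 2 with YR_S replicate 1). The deviations were taken within groups, so these correlations are not independent of each other. Whether the numbers stand for pairs was not tested. With the replicate number as a block edgeR called 0 entries at an adjusted p below 0.05, and 19 higher and 58 lower at the study's thresholds, and log2 fold changes were 2.38 for dre-miR-216b, 2.35 for ssa-miR-216b-5p and 2.32 for dre-miR-217_R+1.

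No ratio of arms was computed, as the members include no 3p entry. Depth limits ssa-miR-216b-5p most, with 4 counts in WR_S replicate 2.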
